A study of Mus musculus with 6 samples.

Results

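The cytosolic ribosomal protein genes are 88 of the 24809 mouse genes in the deposited table. They encode proteins of the cytosolic ribosome or are close copies of such genes. They were chosen by symbol: Rpl or Rps followed by a number, with at least 1 messenger RNA row, together with Rplp0, Rplp1, Rplp2 and Rpsa. Ribosomal S6 kinase genes, Rps19bp1 and symbols ending in -ps and a number, which name pseudogenes, were left out. Rpl32l and Rpl37rt, annotated as processed pseudogenes, stayed in because the rule goes by symbol. Of the 88 genes, 54 belong to the large and 34 to the small subunit. The standard proteins number 77, called core members here, and the other 11 are paralogs or copies.

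RNA sequencing was done on C2C12, an established mouse myoblast line that fuses into myotubes when serum is withdrawn. Cells labelled Msx1 overexpression (n = 3) were set against cells labelled control (n = 3), whose columns in the table carry the name of a vector. Msx1 is a homeobox transcription factor of undifferentiated mesenchyme. All cells are of 1 line, the labels name neither the vector nor the stage or density at harvest, and no label tells whether a replicate was a culture of its own. The p-values therefore rest on the spread of these libraries alone, which may be only technical. A difference in stage or density between the groups cannot be told apart from one that comes with Msx1.

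A ribosome joins a small subunit, which reads the messenger RNA, to a large subunit, which makes the peptide bond and releases the chain through an exit tunnel. Nearly every ribosomal protein is present in a single copy per ribosome, and cells make the proteins in balance. Their messenger RNAs are among the most abundant of dividing cells, begin with a run of pyrimidines (the 5' terminal oligopyrimidine tract), and are translated under control of the kinase mTORC1 and the RNA-binding protein LARP1. In muscle, growth of the fibre is coupled to the making of ribosomes.

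Values are FPKM (read fragments divided by transcript length and by the size of the library), summed over the rows of a gene, and are given for control replicates 1, 2 and 3 and then Msx1 replicates 1, 2 and 3. FPKM is a level per length and can be compared between genes. Changes are differences of log2(FPKM + 1), Msx1 minus control, with the standard error (SE) and adjusted p of limma, adjusted over all 12371 genes tested. A gene was called lower or higher at an adjusted p under 0.05, and entered the test if it averaged 0.5 FPKM or more over the libraries.

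Msx1 itself was at 7.99, 7.13 and 7.54 FPKM in control and 1004, 944 and 912 FPKM in Msx1 libraries. A rough estimate of depth gave 18.8 to 24.2 M fragments (M, mega) per library. Summed over all genes, the controls held 425939 ± 16089 FPKM and the Msx1 libraries 394557 ± 6294 FPKM (SD, n = 3). All 7 myoblast markers were present in every library, and 3 were lower and 2 higher in Msx1 libraries. Myf5 went from 9.01 ± 0.396 to 1.64 ± 0.0968 FPKM (change -1.92), Vim and Des changed by -0.58 and -0.27, and Ncam1, from 27.1 ± 2.88 to 53.1 ± 5.11 FPKM, and Pax7 by 0.94 and 0.28. Myod1, between 20.7 and 24.2 FPKM, and Cdh15 were not called. The summed level of the 7, mostly Vim, was 2515 to 2699 FPKM in control and 1803 to 1860.0 FPKM in Msx1 libraries. The summed level of 6 markers of fused myotubes was 6.16 to 8.06 FPKM in control and 30.02 to 32.2 FPKM in Msx1 libraries. The 3 of them that could be tested, Myog, Mymk and Acta1, were higher. Of the 3 below the minimum, Myh3 went from 0.142 ± 0.0896 to 0.364 ± 0.0378 FPKM and Myh8 was near 0 throughout. Ckm went the other way, from 0.211 ± 0.0744 to 0.110 ± 0.0781 FPKM, with overlapping groups. Ptprc and Adgre1 (macrophage), Epcam (epithelium), Plin1 (adipocyte) and Snap25 (neuron) were listed at 0 in every library. The sum of 4 macrophage markers, mostly Cd68, was 2.84 to 3.63 FPKM in control and 1.13 to 1.42 FPKM in Msx1 libraries. That of 3 neuron markers, mostly Tubb3, was 7.67 to 8.86 FPKM against 2.00 to 2.91 FPKM, and that of 3 adipocyte markers 1.44 to 1.79 FPKM against 0.660 to 1.27 FPKM. Among the adipocyte markers, Fabp4 went from 1.58 ± 0.188 to 0.315 ± 0.213 FPKM. Adipoq went the other way, from 0 in every control to 0.560 ± 0.276 FPKM in Msx1 libraries. Endothelial and epithelial lists summed to less than 1 FPKM in every library. The part of these differences in the results below was not tested.

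The ribosomal protein transcripts held a large share of all FPKM, and that share was smaller in the Msx1 libraries. Together they made up 12.8, 10.8 and 11.6% of all FPKM in control and 8.63, 8.54 and 8.92% in Msx1 libraries. The groups did not overlap, and the means were 11.7 ± 0.985% and 8.70 ± 0.200% (SD, n = 3). An exact two-sided permutation test of 3 against 3 libraries cannot give a p below 0.1. Both subunits took part: the large subunit went from 7.53 ± 0.638% to 5.55 ± 0.162% and the small subunit from 4.22 ± 0.351% to 3.14 ± 0.0389%. The summed FPKM of the large subunit was 1.79 ± 0.0281 times that of the small subunit in control and 1.77 ± 0.0305 times in Msx1 libraries, a difference smaller than the spread between replicates. In bulk RNA, fewer cells of a type and less RNA per cell cannot be told apart. FPKM measures a share of each library per transcript length, not an amount per cell.

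Single genes showed the same step between groups. Of the 85 members tested, 74 fell (87.1%) and 0 rose, while 32.4% of all genes tested were called lower and 22% higher. The control and Msx1 libraries did not overlap for 76 members, which include all 74 that fell, where 36.8% of all genes tested lay lower in every Msx1 library than in any control library. The median change was -0.51 over the members and -0.07 over all genes tested. With median-of-ratios scaling the calls over all genes were 3191 lower and 3294 higher, and 70 members were lower and 0 higher.

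Control replicate 1 gave the highest value for 78 of the 85 members. The median member lay 0.18 above the control mean of its gene in control replicate 1, -0.15 from it in replicate 2 and -0.02 in replicate 3, on the log2(FPKM + 1) scale. In Msx1 replicates 1, 2 and 3 it lay at -0.52, -0.53 and -0.47. The controls thus spread over more than the Msx1 libraries did, and the lowest control stayed above all of them. Over all genes tested the same medians were between -0.01 and 0.01 in control and between -0.07 and -0.06 in Msx1 libraries. Without control replicate 1 74 members were called lower, and the median change of all 85 tested was -0.42.

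**Figure D1:**
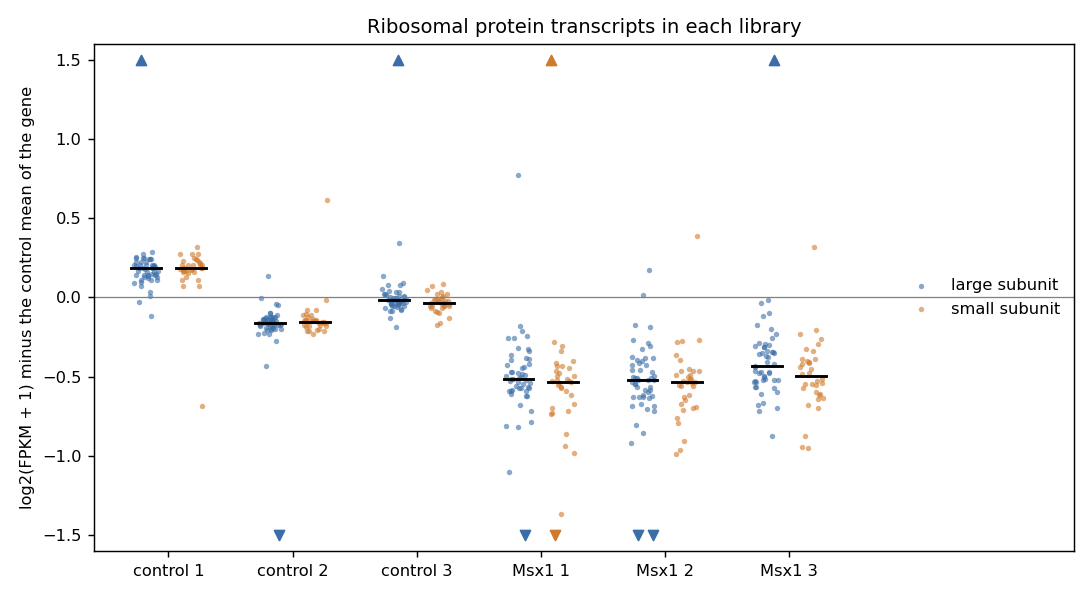
Each point is 1 of the 85 tested ribosomal protein genes, placed at its log2(FPKM + 1) in a library minus the control mean of that gene; bars are medians per subunit, and triangles stand for values beyond 1.5. The medians lie near 0.18, -0.15 and -0.02 in control and near -0.5 in all Msx1 libraries, alike for both subunits.

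The falls were of similar size in both subunits. In the large subunit 43 of 51 tested members fell with a median change of -0.51, and in the small subunit 31 of 34 fell with a median change of -0.52. Of the core members, 70 of 77 fell, and of the paralogs and copies, 4 of 8 tested. Of the 74 falls, 55 lay between -0.4 and -0.7, and the largest was -0.95, which is 0.508 times the control mean. The smallest adjusted p was 1.11e-04.

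**Figure D2:**
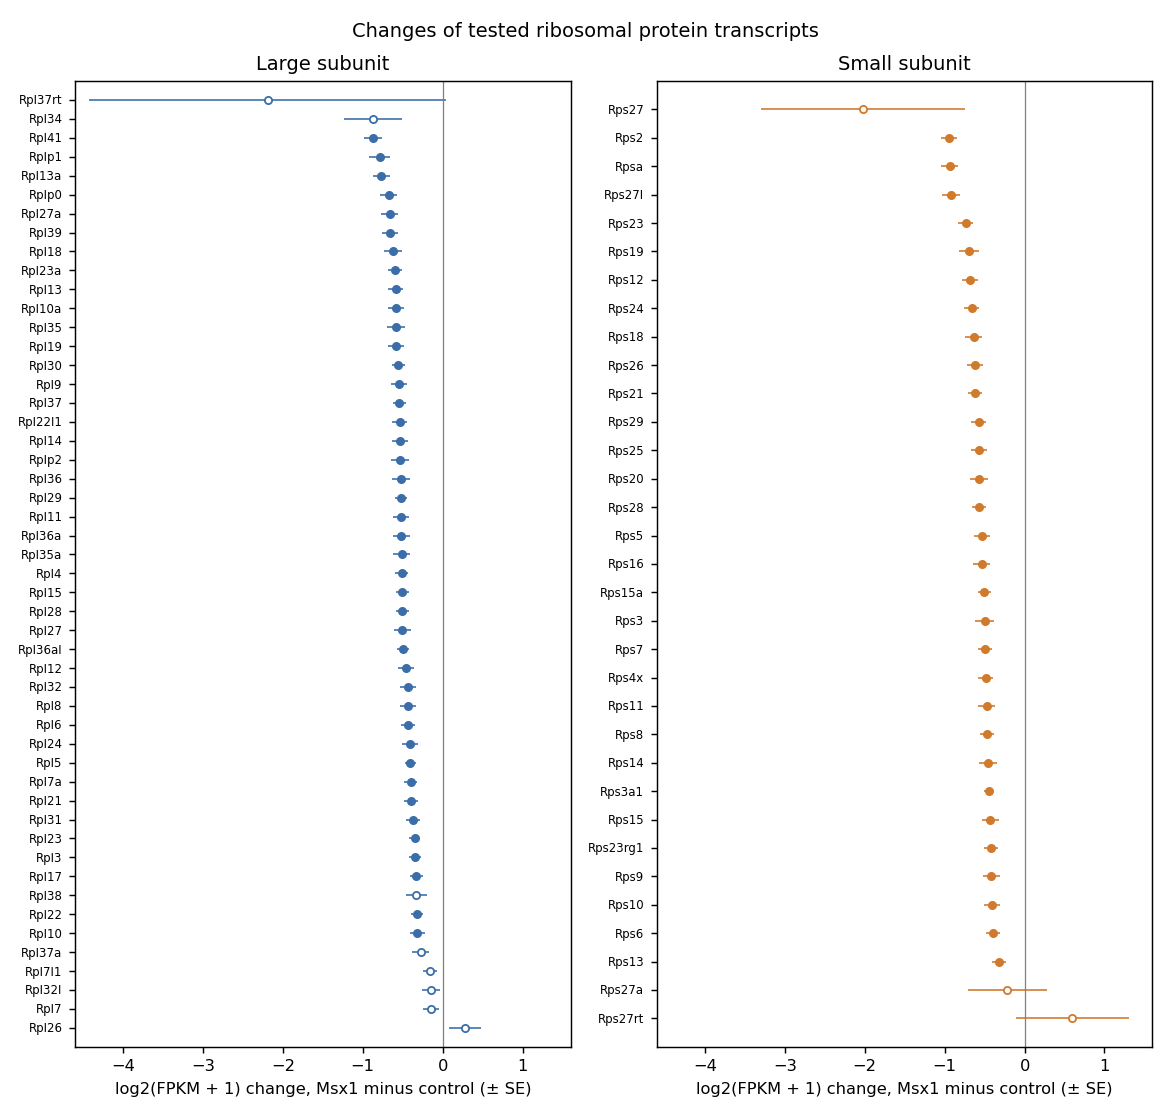
Tested ribosomal protein genes are drawn, each at its change in log2(FPKM + 1), Msx1 minus control, with the SE of limma; filled points passed an adjusted p under 0.05 and open points did not. Every filled point lies to the left of 0, and the long error bars belong to Rpl37rt, Rps27, Rpl34, Rps27a and Rps27rt.

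Levels among the core members varied far more than the changes did. Averaged over the libraries, 74 of 77 were at 50 FPKM or more and 35 at 500 FPKM or more, with a median of 483 FPKM. Rplp1 had the highest mean, 1897 FPKM. Rpl21, Rpl26 and Rpl29 had means under 5 FPKM in this table, although each encodes a protein that every ribosome carries. Processed pseudogenes of many ribosomal protein genes exist in the mouse genome, and the sources used here do not tell how reads shared with them were divided, so these levels are uncertain. Rpl29 read 3.30, 2.91 and 2.87 in control and 1.78, 1.93 and 1.72 FPKM in Msx1 libraries, and Rpl21 read 1.96, 1.43 and 1.68 against 1.04, 0.955 and 1.11 FPKM. Both fell, by 0.52 and 0.40 on the log2 scale.

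The sets of members that follow share a place in the ribosome, and their counts are to be read against the 87.1% of all members tested that fell. The proteins of the P stalk, the flexible arm of the large subunit that recruits the elongation factors, all had lower transcripts, 4 of 4. Rplp0 (chr5:115559467-115563729, GRCm38), the base of the stalk, was at 2535, 2024 and 2362 FPKM in control and 1399.5, 1408 and 1507 FPKM in Msx1 libraries. Rplp1 (chr9:61913283-61914510), 1 of the acidic proteins that form its tip, was at 2889, 2028 and 2316 against 1359, 1319.8 and 1468 FPKM. Neither gene had overlapping groups. Rplp0 fell by 0.68 (SE 0.10, adjusted p = 9.28e-04) and Rplp1 by 0.79 (SE 0.13, adjusted p = 0.00159) on the log2 scale. Rplp2, the partner of Rplp1 at the tip, fell by 0.53, and Rpl12, which lies at the foot of the stalk, fell by 0.46. Leaving out the minimum level adds 12438 low genes to both the fit and the adjustment. The adjusted p of Rplp0, Rplp1 and Rplp2 was then 0.0988, 0.0887 and 0.0539, with the same changes.

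Rpl5 and Rpl11, which enter the large subunit together with the 5S rRNA and which, when free, bind the p53 ligase Mdm2, both fell. Rpl5 (chr5:107900508-107909005) read 378, 351 and 399.9 FPKM in control and 269, 279 and 305 FPKM in Msx1 libraries. Rpl11 (chr4:136049354-136053393) read 1023, 797 and 853 against 614, 622 and 618 FPKM. The Msx1 libraries of Rpl11 had an SD of 3.94 FPKM and the controls one of 118 FPKM, and for both genes the groups stood apart. The changes were -0.40 (SE 0.07, adjusted p = 0.00239) for Rpl5 and -0.52 (SE 0.10, adjusted p = 0.00263) for Rpl11.

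Of 9 proteins at or near the exit tunnel, 8 had lower transcripts, and the median change was -0.51, the same as over all members. Rpl4 (chr9:64173387-64178562), whose long loop lines the tunnel, was at 1033, 1017 and 1109 FPKM in control and 711, 709.7 and 792 FPKM in Msx1 libraries. Its controls were close together, and the groups stood apart (change -0.51, SE 0.08, adjusted p = 8.28e-04). Rpl39, the small protein at the far end of the tunnel, went from 589 ± 79.8 to 371 ± 10.3 FPKM (change -0.66). Rpl26 was the 1 member of this set without a call. It read 0.341, 0.600 and 0.432 in control and 1.48, 0.640 and 0.356 FPKM in Msx1 libraries, so its groups overlapped at a level near the minimum for testing (change 0.28, SE 0.20, adjusted p = 0.276).

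Rpl10 (chrX:74270816-74273135), a protein added late to the large subunit close to the site of peptide bond formation, read 232, 193 and 208 in control and 160.3, 161 and 186 FPKM in Msx1 libraries. It fell by 0.32 (SE 0.09, adjusted p = 0.0174), a call that 5 of the 17 alternatives ended. With the trend on transcript length removed its change was -0.084 (adjusted p = 0.248). Its adjusted p was 0.0564 with median-of-ratios scaling, 0.0915 without the minimum level, 0.0688 without Msx1 replicate 1 and 0.0663 without Msx1 replicate 2. Rpl38, known in mice for its part in the translation of Hox messenger RNAs, read 174, 118 and 142 against 119.7, 118 and 103 FPKM. Its groups overlapped through control replicate 2, and it was not called (change -0.33, SE 0.13, adjusted p = 0.0677). Without control replicate 2 its adjusted p was 0.00831.

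In the small subunit, all 8 proteins listed for the decoding site and the path of the messenger RNA had lower transcripts, with a median change of -0.55. Rps2 (chr17:24718121-24721927), at the entry of the messenger RNA channel, had the largest fall of all members called. It read 78.6, 58.8 and 64.1 in control and 33.3, 35.05 and 34.0 FPKM in Msx1 libraries, and the highest Msx1 value was well under the lowest control. Its change was -0.95 (SE 0.10, adjusted p = 1.11e-04), 0.508 times the control mean. Rps23, which helps to monitor codon pairing at the decoding site, read 943, 752 and 806 against 499, 478 and 517 FPKM (change -0.74, SE 0.09). Rps3, which also lies at the channel entry, read 411, 294 and 324 against 241, 235 and 244 FPKM (change -0.50, SE 0.11), with an adjusted p of 0.0618 without the minimum level.

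Rpsa (chr9:120127766-120132369), a small-subunit protein also known as the laminin receptor precursor, had a fall close to that of Rps2. Its values were 1255, 952 and 1119 in control and 574, 554 and 600.1 FPKM in Msx1 libraries. The change was -0.93 (SE 0.11, adjusted p = 1.68e-04). Rps19 (chr7:24884592-24889811), the protein most often mutated in Diamond-Blackfan anaemia, read 481, 338 and 352 against 232, 242 and 237 FPKM. Control replicate 1 stood above the other controls, and all controls stood above all Msx1 libraries (change -0.70, SE 0.13, adjusted p = 0.00213). Rps6 (chr4:86854099-86857367), the substrate of the S6 kinases, read 509, 425 and 483 against 349, 342 and 384 FPKM (change -0.40, SE 0.08, adjusted p = 0.00509).

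Rps13 was among the small-subunit members with the smaller falls. It read 316, 248 and 264 in control and 217, 226 and 219 FPKM in Msx1 libraries, a fall of 0.32 on the log2 scale (SE 0.09, adjusted p = 0.0185). The groups did not overlap, and 5 of 17 alternative ways of processing ended its call.

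Rpl7 and Rpl37a did not pass the test. Rpl7, a large-subunit protein, read 1392, 1132 and 1217 in control and 1071, 1092 and 1213 FPKM in Msx1 libraries, and Msx1 replicate 3 lay within the control range (change -0.15, SE 0.10, adjusted p = 0.252). Rpl37a, a zinc-finger protein of the large subunit, read 627, 463 and 514 against 447, 433 and 435 FPKM. Its groups did not overlap, and the change of -0.27 missed the threshold (SE 0.11, adjusted p = 0.0615), which it passed in 3 of the 17 alternatives.

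Among the copies, the reads of Rps27 and Rps27rt cannot be told apart over the whole coding part. Rps27, a zinc-finger protein of the small subunit, lies on chromosome 3 (chr3:90212667-90213648, minus strand, GRCm38). Rps27rt is a copy in 1 exon on chromosome 9 (chr9:114982366-114982739, minus strand). The coding sequences below come from GENCODE M21 transcripts and are printed 5' to 3' because the values of the pair turn on them. Capitals mark bases that differ from Rps27. Rps27rt was identical at 255 of 255 bases, while the paralog Rps27l (chr9:66944624-66949522, plus strand) differed at 61 bases (76.1% identity).
Rps27: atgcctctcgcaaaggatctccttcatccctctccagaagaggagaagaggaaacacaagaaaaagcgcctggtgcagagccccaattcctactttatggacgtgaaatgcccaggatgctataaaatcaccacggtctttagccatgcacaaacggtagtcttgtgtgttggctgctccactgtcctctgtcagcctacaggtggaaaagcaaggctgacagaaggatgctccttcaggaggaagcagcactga
Rps27rt: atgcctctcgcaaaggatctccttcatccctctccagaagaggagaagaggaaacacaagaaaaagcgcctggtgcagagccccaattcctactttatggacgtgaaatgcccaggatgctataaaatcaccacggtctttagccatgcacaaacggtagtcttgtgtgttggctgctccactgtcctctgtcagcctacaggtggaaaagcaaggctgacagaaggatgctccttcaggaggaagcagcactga
Rps27l: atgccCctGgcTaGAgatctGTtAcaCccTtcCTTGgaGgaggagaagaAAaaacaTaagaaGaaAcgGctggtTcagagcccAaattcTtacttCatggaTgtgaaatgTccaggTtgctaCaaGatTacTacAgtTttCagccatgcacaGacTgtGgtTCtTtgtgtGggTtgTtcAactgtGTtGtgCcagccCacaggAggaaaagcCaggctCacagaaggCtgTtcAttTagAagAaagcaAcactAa
The RefSeq windows at the start sites (GRCm38.p6, 10 bases before and 20 from the annotated start) show that the pair also shares bases at the start. Capitals mark a shared run of 19 bases, at chr3:90213629-90213658 for Rps27 and chr9:114982720-114982749 for Rps27rt.
Rps27 start: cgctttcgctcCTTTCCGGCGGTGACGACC
Rps27rt start: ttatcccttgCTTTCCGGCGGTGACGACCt

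Rps27 was at 662, 512 and 556 FPKM in control and at 11.1, 476 and 488 FPKM in Msx1 libraries. Rps27rt was at 99.5, 87.0 and 90.0 in control and at 545, 62.5 and 79.7 FPKM in Msx1 libraries. Msx1 replicate 1 alone was low for the first and high for the second, and neither was called, with changes of -2.02 (SE 1.27, adjusted p = 0.215) and 0.60 (SE 0.71, adjusted p = 0.504). Without Msx1 replicate 1 the change of Rps27 was -0.25 (adjusted p = 0.138) and that of Rps27rt -0.38 (adjusted p = 0.0330). Summed, the pair gave 761, 599 and 646 in control and 556, 538 and 568 FPKM in Msx1 libraries, with no outlying library. The sum fell by 0.26 on the log2 scale (SE 0.09, adjusted p = 0.0433), a sum formed after the values were seen.

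Rps27l, a paralog of Rps27 known as a p53 target, differs enough in sequence to be counted on its own and was steady within groups. It read 326, 251 and 239 in control and 148, 138 and 139 FPKM in Msx1 libraries. It fell by 0.92 on the log2 scale (SE 0.11, adjusted p = 2.57e-04), more than any other paralog or copy that was called.

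Rpl34, a large-subunit protein, has a copy that the symbol rule left out as a pseudogene, Rpl34-ps1. Rpl34 read 382, 265 and 455 in control and 167, 125 and 354 FPKM in Msx1 libraries, and Rpl34-ps1 read 294, 299 and 159 against 263, 307 and 58.9 FPKM. In each group, replicate 3 was the highest for Rpl34 and the lowest for Rpl34-ps1. Rpl34 alone was not called (change -0.88, SE 0.36, adjusted p = 0.0730). It passed with library weights, which count control replicate 3 most (adjusted p = 0.00246), and with the replicate number as a block (0.00410). It also passed without control replicate 2 (0.0482) and without Msx1 replicate 3 (change -1.31, adjusted p = 0.00387). Its change was -0.56 without Msx1 replicate 2. Its sum with Rpl34-ps1, also formed after the values were seen, was 676, 564 and 614 against 429, 432 and 413 FPKM and fell by 0.54 (SE 0.08, adjusted p = 6.76e-04).

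Rpl37rt is a copy of Rpl37, a zinc-binding protein of the large subunit, with 293 of 294 coding bases identical. It read 167, 0.212 and 148 in control and 1.49, 0.125 and 114 FPKM in Msx1 libraries, so each group held libraries near 0 and libraries above 100 FPKM. It was not called (change -2.19, SE 2.24, adjusted p = 0.439), and with library weights its adjusted p was 0.0213. The weights were 7.18 for control replicate 3, and 0.239 and 0.439 for control replicates 1 and 2. Msx1 libraries had weights of 0.774 to 1.45. Rpl37 was steady at 212, 168 and 183 against 131, 128 and 126 FPKM and fell by 0.54 (SE 0.08, adjusted p = 0.00103). The sum of both missed the threshold (change -0.79, SE 0.33, adjusted p = 0.0785). Rps27a, made as a fusion of ubiquitin and a small-subunit protein, was likewise uneven, at 109, 269.7 and 185 in control and 67.6, 229.8 and 219.5 FPKM in Msx1 libraries, and had no call (change -0.22, SE 0.49, adjusted p = 0.733). Its change was 0.09 without control replicate 2 and 0.35 without Msx1 replicate 1.

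**Figure D3:**
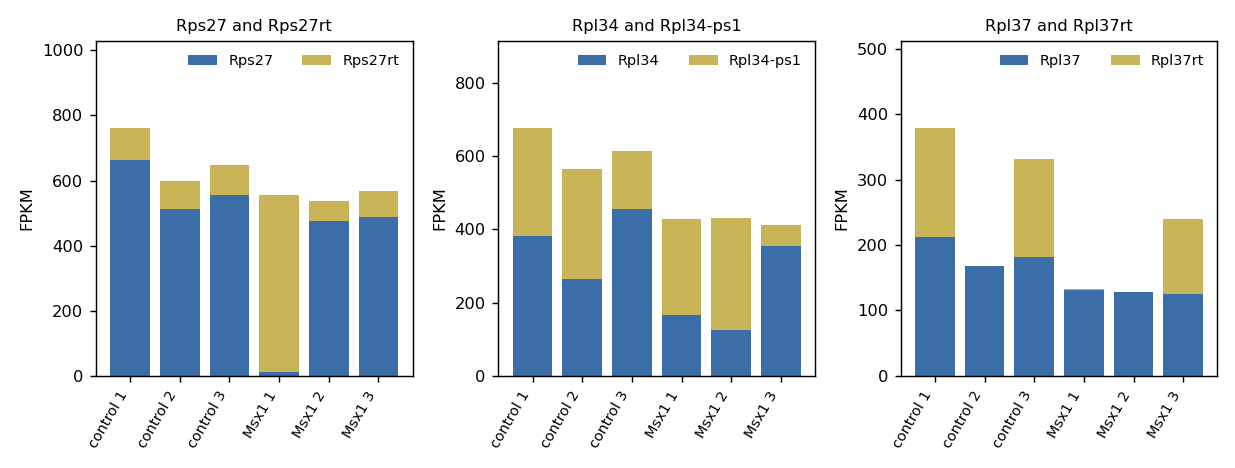
Stacked bars give the FPKM of a ribosomal protein gene and of its copy in each library. Msx1 replicate 1 holds Rps27rt in place of Rps27 while the height of the bar is like its neighbours, the division between Rpl34 and Rpl34-ps1 shifts within both groups, and Rpl37rt comes and goes over a steady Rpl37.

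The remaining paralogs fell, missed the threshold or were at 0. Rpl22l1, a paralog that in some tissues takes the place of Rpl22, fell from 87.5 ± 11.5 to 59.8 ± 3.58 FPKM (change -0.54), while its most abundant transcript alone was not called (change 0.34). Rpl22, an RNA-binding protein near the exit tunnel, fell from 138 ± 12.6 to 110.2 ± 4.61 FPKM (change -0.32), and its most abundant transcript alone was not called (change -0.23). Rpl36al fell by 0.49 and Rpl36a, which it resembles at 87.9% of coding bases, by 0.52. Rps23rg1, a retrocopy of Rps23, was near 2 FPKM in control and fell by 0.42. Rpl7l1, a paralog of Rpl7, read 60.4, 48.1 and 50.1 against 46.4, 46.5 and 48.5 FPKM and was not called (change -0.16, adjusted p = 0.152). Rpl32l, a single-exon copy 96.0% identical to Rpl32, read 1.40 to 2.26 FPKM over all libraries and was not called, while Rpl32 fell by 0.44 (adjusted p = 0.0685 without the minimum level). The muscle paralog Rpl3l was at 0.0393 FPKM or less in every library, and Rpl10l and Rpl39l, known from testis, were listed at 0 throughout. These 3 were below the minimum for testing, and Rpl3, which Rpl3l replaces in mature muscle, fell by 0.35.

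The members did not all fall by the same amount. To see which stood apart, the median core member of each library was subtracted from every gene, an alternative added after the values were seen that moves the median of all genes by 0.53. On this scale 8 members were lower than the median member, 13 were higher and 64 were not called, where 4.69% of all genes tested were called lower and 65.6% higher. The 8 lower members were Rps2 (-0.41, SE 0.09), Rpsa (-0.40, SE 0.06), Rps27l, Rpl41, Rplp1, Rpl13a, Rps23 and Rplp0 (-0.14, SE 0.06), 4 in each subunit. Rpl41 (chr10:128548110-128549168), the shortest ribosomal protein, read 2367, 1768 and 2098 in control and 1171, 1090.5 and 1126 FPKM in Msx1 libraries. Rpl13a, also known as part of an interferon-responsive complex that silences translation, read 885, 667 and 703 against 433, 427 and 453 FPKM. Rpl29, Rpl13a, Rpl23 and Rpl17 are named here after their values were seen.

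Of the 13 members above the median member, 11 were among the 51 large and 2 among the 34 small subunit members tested. Rpl23, Rpl3, Rpl17, Rpl22, Rps13, Rpl10, Rpl7 and the paralog Rpl7l1 were among them. So were Rpl26 and the copy Rpl32l, with means of 0.642 and 1.73 FPKM. At such levels this scale understates changes, so their place above the median member says little. Rpl7 lay 0.39 above the median member (SE 0.06, adjusted p = 2.47e-04). Rpl23, which like Rpl5 and Rpl11 can bind Mdm2, lay 0.18 above it (SE 0.07, adjusted p = 0.0370) and read 617, 535 and 567 in control and 438, 456 and 452 FPKM in Msx1 libraries.

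Ribosomal protein messenger RNAs are short and abundant, and the changes of other genes ran with length and level. Of 1072 other genes with a transcript under 1 kb, 38.9% were called lower and 12.1% higher, with a median change of -0.19. The 288 of them under 0.5 kb had a median length of 111.5 bases, where that of the members was 780 bases, and a median change of -0.14. Of 5708 other genes of 3 kb or more, 27.2% were called lower and 26.3% higher, with a median change of -0.01. Of 595 other genes that averaged 100 FPKM or more, 46.1% were called lower and 25% higher (median -0.15). Of 121 that were both short and abundant, 57.9% were called lower and 8.26% higher (median -0.30). Among the members, 51 of the 60 under 1 kb fell (median -0.52) and 23 of the 25 longer ones (median -0.50). With the trend on transcript length removed from each library, 68 members were lower and 0 higher, and the median change was -0.29 over all 85 members tested and 0.01 over all genes. The part of RNA quality or library preparation in this trend was not tested.

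**Figure D4:**
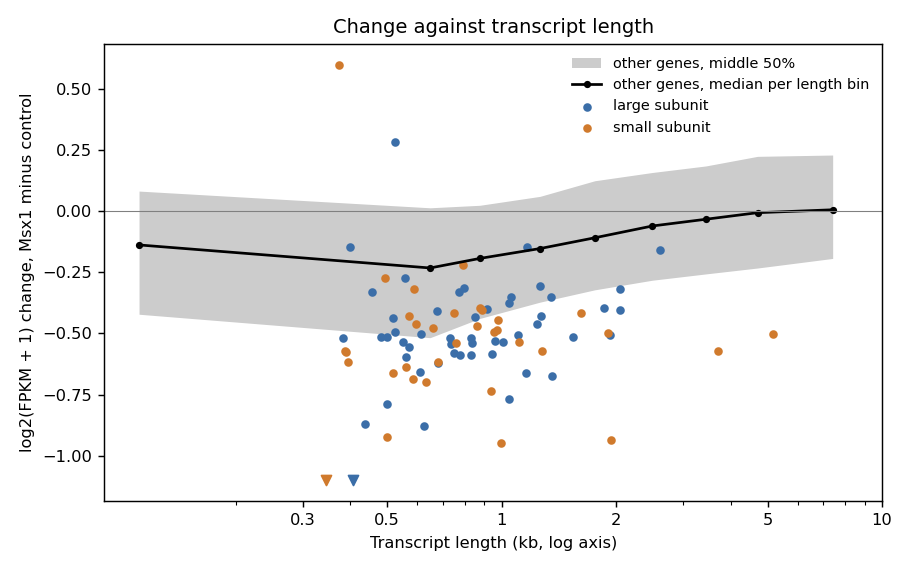
Points are the tested ribosomal protein genes by transcript length (log axis) and change in log2(FPKM + 1); the line and band give the median and middle 50% of other genes per length bin, and triangles mark Rps27 and Rpl37rt, whose changes lie below -1.1. Other genes under 1 kb have bin medians between -0.14 and -0.23, and most ribosomal protein genes lie below that line.

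The start sites of the members were compared with those of all promoters in the RefSeq table (GRCm38.p6, 250 bases before to 50 after a start). Of the 88 genes, 68 had an entry, with 80 entries in all. A pyrimidine motif, spelled CTTTC in 1 form and CTTCC in the other, was searched on the strand of the gene within 25 bases on each side of the start. It was present in 45% of member entries and in 16.5% of 32851 promoters, and on the opposite strand in 25% and 17.2%. The core sequence of ETS factors such as GABP, spelled CCGGAAG, was searched on either strand of all 300 bases and was present in 33.75% of member entries and 8.86% of all promoters. Its reverse complement overlaps the form of the pyrimidine motif that ends in a pair of C, so the counts are not independent. The TATA box, spelled TATAAA, was present on either strand in 10% of member entries and 13.6% of all promoters.

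The windows below, from 10 bases before to 20 from the annotated start, are shown for members at both ends of the range of change and for Rpl15, which carries the longest run among them. Of the 58 members with a single entry, 50 have it at the outer end of the gene and 8 inside the span of the gene, Rps2 among them (1942 bases inside), and those shown are of the first kind. They were chosen after the values were seen, and capitals mark the pyrimidine motif in either form.
Rpsa, chr9:120127756-120127785, plus strand: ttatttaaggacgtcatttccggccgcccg
Rpl41, chr10:128549149-128549178, minus strand: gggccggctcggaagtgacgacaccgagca
Rpl13a, chr7:45128726-45128755, minus strand: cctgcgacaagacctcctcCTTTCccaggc
Rps23, chr13:90923112-90923141, plus strand: cggctgggcggggCTTCCcgcaatgccttg
Rpl15, chr14:18270967-18270996, minus strand: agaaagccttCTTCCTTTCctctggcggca
Rpl23, chr11:97782420-97782449, minus strand: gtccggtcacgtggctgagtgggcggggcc
Rps13, chr7:116334171-116334200, minus strand: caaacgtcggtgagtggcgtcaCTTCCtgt
Rpl10, chrX:74270806-74270835, plus strand: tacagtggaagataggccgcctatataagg
Windows with the letters and windows without them occurred among the members that fell most (Rps23 with, Rpsa without) and among those that fell least (Rps13 with, Rpl23 without). Of core members with a single entry, 25 held the pyrimidine motif and had a median change of -0.51, with 22 called lower. The 24 without had a median change of -0.51, with 23 called lower. A start without these letters can still hold a run of pyrimidines, as that of Rps6 does. The split therefore does not compare starts with and without an oligopyrimidine tract, and the part of the tract in the falls was not tested. Entries inside the span of the gene, such as that of Rps2, were kept in this split and in the shares of entries with a motif. A match is a description of these letters at an annotated start and no evidence of a bound factor.

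Other genes of translation were read beside the ribosomal proteins, and their counts stand against the 32.4% of all genes tested called lower and the 22% called higher. Ribosomal proteins that the symbol rule does not reach fell too, among them Fau and Rack1. Fau, a fusion of a ubiquitin-like protein and a small-subunit protein, read 664, 536 and 547 in control and 447, 434 and 450.3 FPKM in Msx1 libraries (change -0.39, SE 0.09, adjusted p = 0.00767). Rack1, a scaffold protein on the small subunit, read 1312, 1030.2 and 1177 against 872, 859 and 926 FPKM (change -0.40, SE 0.10, adjusted p = 0.0102). Of 8 genes tested in the elongation factor list, 5 were lower and 0 higher (median -0.37). The largest fall in that list, -0.66, was that of Eef1e1, which was listed by its symbol and is not itself an elongation factor. Eef1a1, which brings the charged tRNA to the ribosome, fell by 0.33, and Eef2, which moves the ribosome along, was not called (change -0.09, SE 0.08). Of 20 other genes whose transcripts are known to begin with an oligopyrimidine tract, 15 were lower and 0 higher (median -0.32). Among the lower ones were the nucleolar chaperone gene Npm1 (change -0.64, SE 0.08) and the non-coding Gas5 (change -0.18, SE 0.05).

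Of 15 initiation factor genes 5 were lower and 2 higher, with a median change of -0.11. Of 11 genes of RNA polymerase I, which transcribes rRNA, 4 were lower and 0 higher (median -0.02), and of 9 chaperones and assembly factors of ribosomal proteins 2 were lower and 1 higher (median -0.04). The shares called lower in these 3 lists are near or under the 32.4% of all genes tested. Of 78 mitochondrial ribosomal protein genes 54 were lower and 1 higher (median -0.32), a larger share lower than among all genes tested.

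Of 18 tested genes of growth control of translation, 5 were lower and 2 higher (median 0.02), both shares under the 32.4% and 22% of all genes tested. Larp1, which binds the start of oligopyrimidine messenger RNAs and represses their translation, read 26.9, 27.3 and 26.1 in control and 38.1, 37.8 and 36.4 FPKM in Msx1 libraries. It rose by 0.47 (SE 0.05, adjusted p = 9.57e-05), the groups far apart for the spread within them. Maf1, a repressor of RNA polymerase III, rose by 0.24 (SE 0.06). Myc, an activator of ribosome genes, fell by 0.25 (SE 0.06) and Rps6kb1, the main S6 kinase, fell by 0.35 (SE 0.08). The other genes of this list called lower were Akt1s1 (change -0.24, SE 0.06), Rps6kb2 (change -0.28) and Larp4 (change -0.26). Mtor itself was not called (10.7 ± 0.429 against 11.6 ± 0.880 FPKM, SD, n = 3).

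**Figure D5:**
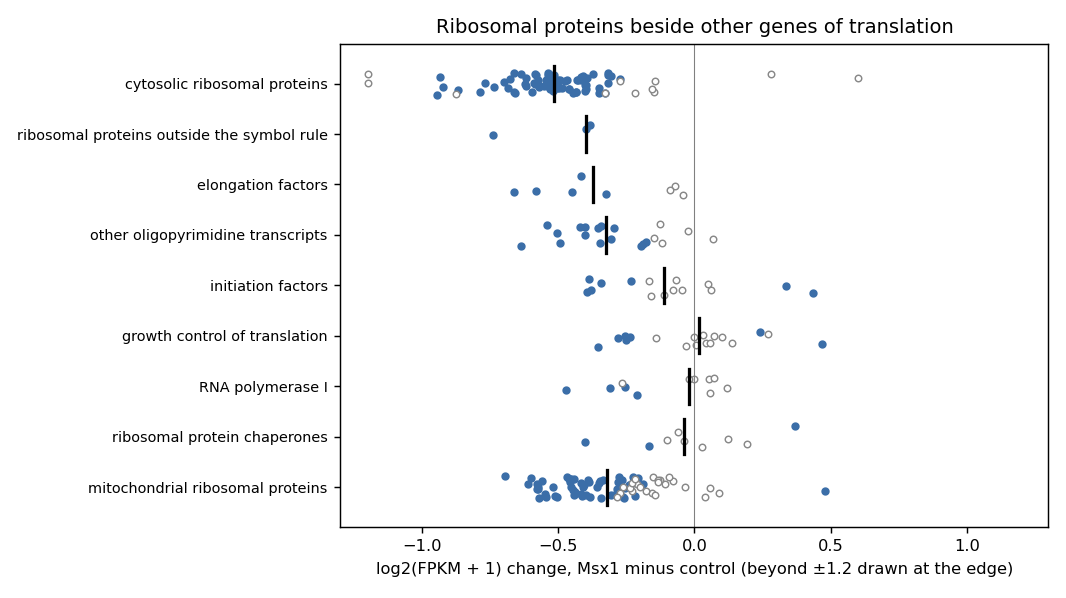
Each point is a gene at its change in log2(FPKM + 1), Msx1 minus control, filled where the adjusted p was under 0.05; vertical bars are medians. The cytosolic ribosomal proteins (median -0.51) lie to the left of the elongation factors (-0.37), the other oligopyrimidine transcripts (-0.32) and the mitochondrial ribosomal proteins (-0.32), and the growth control genes centre near 0.02.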

How the data were processed

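The authors deposited 1 table of FPKM per RefSeq transcript, made with Trimmomatic, HISAT2 and StringTie on GRCm38 (mm10), per the submitters' processing notes. Versions, settings and use of strand: not given in the sources used here. FPKM divide by the library's fragments, so a large change in some abundant RNAs shifts the rest. Control columns, headed by a vector name, were matched by number to the control samples. Symbols for 38193 of 38468 transcripts came from RefSeq and for 156 from GENCODE M21, and rows were summed per gene. Reads shared with pseudogenes, overlapping genes or antisense partners cannot be assigned with certainty.

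Tests used limma 3.58.1 (R 4.3.3) with an intensity trend on log2(FPKM + 1), a scale that understates changes of low genes, over the 12371 genes that averaged 0.5 FPKM or more, with Benjamini-Hochberg adjustment. The script was tested on simulated data. Members and gene lists were chosen with earlier results of these data known. Genes named were 15 set members, every paralog with its parent, the 4 largest and 4 smallest changes per subunit, all tested members not called lower, the 3 highest and 3 lowest levels, and members with a library over 4-fold from its group's median; some genes are not reported here. Alternatives were 3 scalings, a pseudocount of 0.1, 2 filters, library weights, 2 ways of summing rows, a replicate block, a length correction and leaving out each library. Subtraction of the median core member and sums with copies were added after seeing the data. Depth was estimated from the steps between low FPKM; 38.5 to 42.7% of low values lay within 0.1 of whole multiples, and whole reads were not recovered. No library was dropped or counted once for another: correlations within groups were 0.9899 to 0.9946.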

Additional observations from a re-analysis of the deposited data

How the results depend on the processing

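The counts of members called lower or higher kept their side under every alternative run but 1: with the median core member of each library subtracted, which sets that member to 0, 8 were lower and 13 higher. Members called lower numbered 70 with median-of-ratios scaling, 73 with quantile normalization, 73 with equal totals without Msx1, 53 of 88 without the low-value filter, 71 of 80 at 5 FPKM or more, 78 with library weights, 74 with a pseudocount of 0.1, 74 with messenger RNA rows only, 68 with the most abundant transcript and 68 with the length trend removed, and 0 were higher in each. The library weights counted control replicate 3 most (7.18) and control replicate 1 least (0.239). Leaving out 1 library gave 71 to 77 lower members (41 to 46 large, 29 to 31 small) and 0 higher. With the replicate number as a block, 77 members were lower (46 large, 31 small). Between same-numbered libraries, deviations from the group mean of each gene correlated at 0.06, 0.23 and 0.04, so the numbers were not taken as pairs. Not every library correlated best with its own number in this measure.

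Signs turned for 5 named genes. Removing the length trend gave 0.0143 for Rps27a, 0.13 for Rpl32l and 0.0343 for Rpl7, and quantile normalization gave 0.0190 for Rpl7. The most abundant transcript of Rpl22l1 gave 0.34. Leaving out 1 library, Rps27a ran from -0.56 to 0.35 and Rps27rt from -0.38 to 1.17. The cause was not tested. Without the low-value filter 24809 genes entered both the fit, with its intensity trend, and the adjustment. The calls of 7 named genes were lost there, Rplp0, Rplp1 and Rplp2 among them. Depth is known only roughly, and 3 libraries a group limit the precision: Rpl37a and Rpl38 passed the threshold in 3 of 17 alternatives each.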

Other observations

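The symbols that the rule left out numbered 20. Symbols beginning with Rps6k, named after the S6 kinases though not all are known to act on Rps6, are 10 of them. Of these, 8 could be tested, and 5 were lower and 0 higher. Over all genes tested, 32.4% were called lower and 22% higher. Rps6ka1 read 2.50, 1.92 and 1.70 in control and 0.748, 0.847 and 0.835 FPKM in Msx1 libraries (change -0.74, SE 0.10). Among 8 symbols of pseudogenes, Rps18-ps4 had the highest level and went from 539 ± 84.2 to 342 ± 16.9 FPKM (SD, n = 3; change -0.64, SE 0.11), beside a change of -0.64 for Rps18 itself. Rpl14-ps1 went from 114 ± 13.9 to 78.0 ± 2.02 FPKM (change -0.53, SE 0.09), beside -0.54 for Rpl14. Rplp2-ps1 (change -0.36) and Rps15a-ps6 (change -0.39) were also lower. Of the 7 tested, Rpl31-ps12 (change -0.20), Rps19-ps3 (change -0.30, beside -0.70 for Rps19) and Rpl34-ps1 (change -0.51) were not called. Reads of these pseudogenes and of their parents may be shared.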
